A study of Mus musculus with 2 samples.

Results

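Fc receptors bind the constant part of antibodies. The 10 genes described here are the receptor chains Fcgr1, Fcgr3, Fcgr4 and Fcgr2b, the shared signalling chain Fcer1g, the neonatal receptor Fcgrt, the B cell receptors Fcmr and Fcer2a, and the receptor-like genes Fcrl1 and Fcrls. They were taken by symbol from 31054 gene rows, and each had 1 row in both libraries. One library held single cells of a Met-1 transplant and the other those of a PyMT tumour, both mammary tumours of C57BL/6 inAd-Chaser-mTmG mice. These mice carry Adiponectin-rtTA, TRE-Cre and the Rosa26 mT/mG reporter, and doxycycline switches cells with an active adiponectin promoter, which are adipocytes, and their progeny for good from tdTomato to EGFP. PyMT mice carry a polyoma middle T transgene, and Met-1 is a line from such a tumour. The series text names EO771 as the implanted line, whereas the sample label, which is followed here, says Met-1. Before the droplet assay, EGFP-positive and tdTomato-negative cells were sorted from both tumours. The age and number of the mice are not analysed here. With 1 library per tumour no replicate error can be given, so there are no p-values. Every range in parentheses is a 95% interval for counting error alone.

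The activating receptors encoded by Fcgr1, Fcgr3 and Fcgr4 bind IgG and signal through the gamma chain that Fcer1g encodes, which recruits the kinase Syk. The receptor encoded by Fcgr2b carries an inhibitory motif in its own tail and recruits the phosphatase encoded by Inpp5d, and it is the IgG receptor of B cells. Macrophages use these receptors to take up antibody-coated cells, and mouse NK cells use the product of Fcgr3 for antibody-dependent killing. The neonatal receptor pairs with the product of B2m and returns IgG from endosomes to the cell surface. Fcmr encodes the IgM receptor, Fcer2a the low-affinity IgE receptor CD23, and Fcrl1 a B cell membrane protein. Fcrls is known in mouse brain as a microglia marker.

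Fcgr2b, Fcgr4, Fcgr3 and Fcer1g lie within 275.7 kb of mouse chromosome 1, from 170958617 to 171234365 on GRCm38. Their promoters are shown because these 4 neighbours differed in which cell classes held their RNA, with the promoter of the B cell gene Fcmr beside them. Each run covers 250 bases before to 50 bases after a RefSeq start site on GRCm38.p6. Capitals mark GAGGAA or its reverse complement TTCCTC, the core letters bound by PU.1, a factor of myeloid and B cells. The windows are chr1:171234300-171234599 on the minus strand for Fcer1g, chr1:171059354-171059653 on the minus strand for Fcgr3, chr1:171018676-171018975 on the plus strand for Fcgr4, chr1:170976022-170976321 on the minus strand for Fcgr2b and chr1:130865527-130865826 on the plus strand for Fcmr.
Fcer1g: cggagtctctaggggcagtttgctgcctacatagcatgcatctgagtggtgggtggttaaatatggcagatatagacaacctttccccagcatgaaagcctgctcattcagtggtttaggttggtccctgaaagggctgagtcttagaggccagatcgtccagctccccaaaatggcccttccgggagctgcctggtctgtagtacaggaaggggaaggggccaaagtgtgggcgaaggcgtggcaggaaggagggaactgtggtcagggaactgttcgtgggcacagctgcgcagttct
Fcgr3: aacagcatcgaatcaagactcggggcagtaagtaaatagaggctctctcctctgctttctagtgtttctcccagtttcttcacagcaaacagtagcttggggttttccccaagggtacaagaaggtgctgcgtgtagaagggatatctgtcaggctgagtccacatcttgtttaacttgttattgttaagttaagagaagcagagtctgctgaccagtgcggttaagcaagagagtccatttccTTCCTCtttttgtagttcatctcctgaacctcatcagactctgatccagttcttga
Fcgr4: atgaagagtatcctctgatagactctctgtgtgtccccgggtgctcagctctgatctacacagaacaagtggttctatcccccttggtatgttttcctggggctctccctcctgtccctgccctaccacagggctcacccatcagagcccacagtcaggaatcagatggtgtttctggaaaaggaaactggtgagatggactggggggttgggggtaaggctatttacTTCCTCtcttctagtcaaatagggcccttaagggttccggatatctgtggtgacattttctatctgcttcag
Fcgr2b: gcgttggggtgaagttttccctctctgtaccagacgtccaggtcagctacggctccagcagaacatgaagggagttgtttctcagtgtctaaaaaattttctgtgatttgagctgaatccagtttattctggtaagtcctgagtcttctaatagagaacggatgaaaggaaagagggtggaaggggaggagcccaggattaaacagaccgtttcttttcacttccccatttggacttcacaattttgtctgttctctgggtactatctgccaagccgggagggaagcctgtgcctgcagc
Fcmr: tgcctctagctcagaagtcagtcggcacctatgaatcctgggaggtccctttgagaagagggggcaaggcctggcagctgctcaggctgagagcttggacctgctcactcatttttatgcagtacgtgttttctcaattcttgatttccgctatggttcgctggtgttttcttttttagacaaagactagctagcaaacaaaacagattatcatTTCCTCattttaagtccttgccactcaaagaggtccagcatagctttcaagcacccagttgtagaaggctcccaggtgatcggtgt
The letters begin at position -6 from the start site in Fcgr3, at -22 in Fcgr4 and at -36 in Fcmr, and the Fcer1g and Fcgr2b windows hold none. Of the 13 start site windows of the 10 genes, 7 hold a match, among them 2 overlapping windows of Fcgr3, while 28.3% of 32851 mouse promoter windows hold one. The genes with a match are Fcgr1, Fcgr3, Fcgr4, Fcmr, Fcrl1 and Fcrls. TGTGGT, the core of RUNX factors, also searched on both strands, was in 4 of the 13 windows and in 16.8% of all. The matches describe letters only. Of the other members, Fcgr1 (96282909 to 96293969), Fcrls (87250758 to 87263738) and Fcrl1 (87376387 to 87402934) lie on chromosome 3, Fcgrt (45092990 to 45103851) on chromosome 7 and Fcer2a (3681737 to 3694175) on chromosome 8, all on GRCm38. Fcgr2b and Fcgr3 were the 1 pair of 45 whose transcripts share stretches of 50 identical bases, 33 of them within the last 500 bases, so that reads from there are uncertain between them. Antisense genes overlap Fcgr2b (Gm38204) and Fcgrt (Gm45669), and their reads cannot be told apart if the counting ignored strand.

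The libraries kept 2112 of 2451 Met-1 barcodes and 589 of 619 PyMT barcodes, with medians of 7684 UMIs per Met-1 barcode and 3470 per PyMT barcode. A UMI tags 1 captured RNA molecule. Cell classes were set by UMIs of marker genes that are no Fc receptor. This gave 678 Met-1 and 161 PyMT macrophages, 31 and 114 neutrophils, 139 and 3 NK cells, 247 and 41 T cells, 112 and 24 B cells, 17 and 0 monocytes, and 96 and 12 barcodes with both C1q and Cd79a RNA. Macrophages of both tumours had 8 of 9 of their defining markers at 50 CPM or more, and neutrophils and B cells had 7 of 7, where CPM is a gene's UMIs per 1000000 UMIs of the class. RNA of EGFP, whose protein was used for the sort, was at 2985 CPM in Met-1 B cells and at 1 UMI in all PyMT B cells. Many B and T cells also passed the dendritic gate, which holds Ccr7 (137 and 82 barcodes in Met-1), and values without Ccr7 in that gate are given where they differ. Classes under 20 barcodes are given as counts, except for 1 Fcrls level and for medians per barcode.

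**Figure D1:**
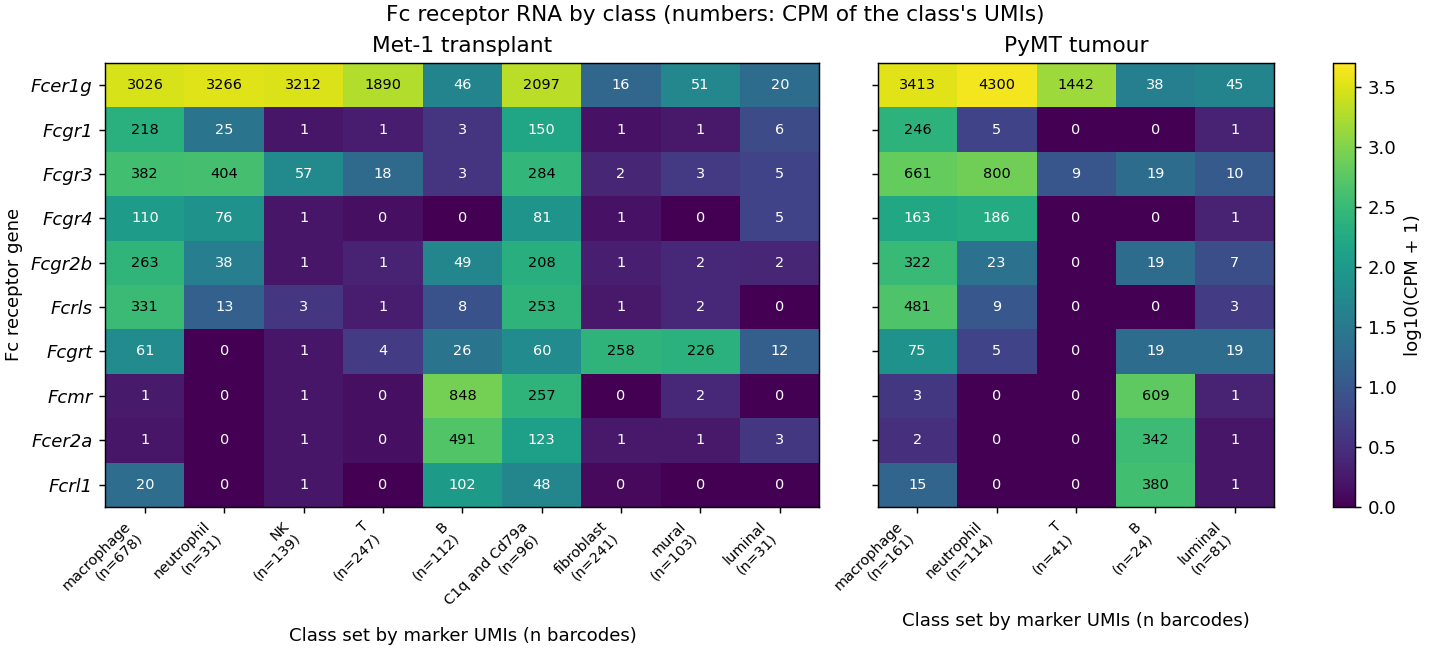
Level of each Fc receptor gene in CPM (printed in each cell, coloured on a log scale) by cell class, for the Met-1 transplant (left) and the PyMT tumour (right). Fcer1g stands at 3026 CPM in Met-1 macrophages and 3413 CPM in those of PyMT, and Fcmr stands at 848 CPM in Met-1 B cells and 609 CPM in those of PyMT.

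Fcer1g, the gamma chain on which the activating receptors depend, reached from myeloid cells into NK and T cells. Among Met-1 cells it stood at 3266 CPM (2881 to 3689) in neutrophils, 3212 CPM (3120 to 3307) in NK cells, 3026 CPM (2981 to 3071) in macrophages and 1890 CPM (1834 to 1947) in T cells. Among PyMT cells it stood at 4300 CPM (4031 to 4583) in neutrophils, 3413 CPM (3315 to 3514) in macrophages and 1442 CPM (1289 to 1608) in T cells. Without Ccr7 in the dendritic gate, 324 Met-1 T cells had 1542 CPM (1497 to 1589), below the interval with it. In PyMT, 44 T cells then had 1375 CPM (1230 to 1533). The ratios to T cells below use the gate with Ccr7, and the lower T cell levels would raise them. In Met-1 the neutrophil interval overlaps those of NK cells and macrophages, and T cells lie below all 3, while in PyMT the 3 classes are separate. The 6 NK markers summed to 1298 CPM in Met-1 T cells (4 of 6 at 50 CPM) and 2969 CPM in PyMT T cells (3 of 6), and their part in the T cell level was not tested. B cells held 18 UMIs in Met-1 (46.0 CPM) and 2 in PyMT. Macrophages stood above T cells by 1.60-fold (1.55 to 1.66) in Met-1, where 17.0% of all genes passed 2-fold upward and 8.7% downward. In PyMT the ratio was 2.37 (2.11 to 2.66), with 27.4% of genes higher and 9.51% lower. A gene counts as higher or lower when its ratio on CPM + 10 is at least 2-fold and it has 50 UMIs on at least 1 side. The shares of all genes show how often that happens. The side with more UMIs brings in more genes, which can raise its share. Neutrophils stood above T cells by 1.73-fold (1.52 to 1.96) in Met-1 (11.2% of genes higher and 41.9% lower) and by 2.98-fold (2.63 to 3.39) in PyMT (37.5% and 34.3%).

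Nearly every macrophage held Fcer1g RNA. With barcodes thinned to 1000 UMIs, 611 of 673 (90.8%) Met-1 macrophages and 153 of 161 (95.03%) PyMT macrophages had a UMI, against 5 of 236 (2.12%) Met-1 fibroblasts. Median depths were 7540 UMIs in Met-1 macrophages, 7238 in PyMT macrophages and 15228 in the fibroblasts, where the unthinned shares were 98.7%, 161 of 161 barcodes and 20.8%. Between the tumours Fcer1g was slightly lower in Met-1 myeloid cells, with a Met-1 to PyMT ratio of 0.887 (0.858 to 0.916) in macrophages and 0.760 (0.659 to 0.872) in neutrophils. In T cells the ratio was 1.31 (1.17 to 1.47), where 9.28% of 4839 genes were higher in Met-1 and 2.71% lower. This T cell value moved to 2.16 at 1000 UMIs per barcode and to 1.12 with Ccr7 left out of the dendritic gate.

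Most Fcer1g RNA of Met-1 T cells lay in those with RNA of the gamma-delta receptor chains, a split made after the data had been seen. T cells with at least 2 UMIs of Trdc, Tcrg-C1, Tcrg-C2 and Tcrg-C4 (124 in Met-1) had 2445 CPM (2363 to 2529) of Fcer1g, and the other 123 had 1014 CPM (949 to 1083). Fcer1g was the 1 measured member and was 2.41 (2.24 to 2.60) times the level of the others, a size that 2.11% of 3506 genes reached upward and 1.23% downward. After thinning, 104 of 122 (85.2%) T cells with gamma-delta chain RNA and 32 of 121 (26.4%) other T cells had a UMI, at median depths of 9971 and 6433 UMIs. In PyMT, 13 T cells with this RNA held 232 Fcer1g UMIs and the other 28 held 92, up to 35 in 1 barcode. These T cells thus made up 124 of 247 in Met-1 and 13 of 41 in PyMT. Without Ccr7 in the dendritic gate the T classes held 324 and 44 barcodes, for which this split is not given.

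Fcgr3, which encodes the low-affinity activating receptor CD16, was lower in the Met-1 than in the PyMT library in both myeloid classes. Met-1 macrophages had 382 CPM (366 to 398), and those of PyMT had 661 CPM (618 to 707). Met-1 neutrophils had 404 CPM (276 to 569.7) from 32 UMIs, and those of PyMT had 800.1 CPM (686 to 927) from 176. In both classes the intervals do not overlap. The Met-1 to PyMT ratio was 0.577 (0.534 to 0.625) in macrophages and 0.504 (0.335 to 0.738) in neutrophils, short of 2-fold on CPM + 10.

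RNA of the neutrophil marker genes was also lower in Met-1 macrophages. The 7 neutrophil markers summed to 1724 CPM in Met-1 macrophages (3 of 7 at 50 CPM) and 4365 CPM in PyMT macrophages (3 of 7). S100a8 was at 40.5 CPM in Met-1 macrophages and 169 CPM in PyMT macrophages, against 53560 CPM in PyMT neutrophils. S100a9 was at 53.2 CPM in Met-1 macrophages and 139 CPM in PyMT macrophages, against 36410 CPM in PyMT neutrophils. Most of both sums thus came from the other listed markers, and whether that RNA came from neutrophils was not tested. In macrophages with no UMI of S100a8 or S100a9, chosen after the data had been seen, Fcgr3 was at 388 CPM in 615 Met-1 barcodes and 641 CPM in 75 PyMT barcodes, a ratio of 0.604 (0.534 to 0.686). In the same barcodes the ratio was 0.737 (0.615 to 0.889) for Fcgr1, 0.746 (0.632 to 0.886) for Fcgr2b, 0.615 (0.488 to 0.783) for Fcgr4, 0.838 (0.796 to 0.882) for Fcer1g, 0.634 (0.461 to 0.890) for Fcgrt and 0.804 (0.692 to 0.939) for Fcrls. The 75 PyMT barcodes come from 161 PyMT macrophages, and the part of neutrophil RNA in these differences was not tested.

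As shares of barcodes thinned to 1000 UMIs, 205 of 673 (30.5%) Met-1 and 77 of 161 (47.8%) PyMT macrophages had an Fcgr3 UMI. Among neutrophils, 8 of 28 (28.6%) in Met-1 and 62 of 110 (56.4%) in PyMT had one, and 1 of 236 (0.424%) Met-1 fibroblasts did. Both myeloid classes thus show the same order by share as by level. Without thinning the shares were 81.3% and 90.1% of Met-1 and PyMT macrophages, 51.6% and 71.05% of Met-1 and PyMT neutrophils, and 2.49% of the fibroblasts. Neutrophils were shallow, with medians of 2698 UMIs in Met-1 and 1758.5 UMIs in PyMT.

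Fcgr1, the high-affinity IgG receptor CD64, was held by macrophages and barely by neutrophils. Met-1 macrophages had 218 CPM (206 to 231) and PyMT macrophages 246 CPM (219.6 to 274), with overlapping intervals and a ratio of 0.889 (0.787 to 1.01). Neutrophils held 2 UMIs in Met-1 and 1 UMI in PyMT, which put macrophages above them by 8.66-fold (2.39 to 71.6) in Met-1 and by 54.02-fold (9.63 to 2140) in PyMT. The PyMT ratio was 30.1 at 1000 UMIs per barcode and 22.4 with neutrophils set by S100a8 and S100a9 alone. NK, T and B cells of Met-1 held 1, 2 and 1 UMIs. The 17 Met-1 monocytes held 25 Fcgr1 UMIs in 9 barcodes.

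Fcgr4, an activating receptor for mouse IgG2 subclasses, was shared by macrophages and neutrophils. It stood at 110.1 CPM (102 to 119) in macrophages of Met-1 and 163 CPM (142 to 186) in those of PyMT, a ratio of 0.677 (0.579 to 0.794) with intervals that do not overlap. Met-1 neutrophils had 75.7 CPM (27.8 to 165) from 6 UMIs and PyMT neutrophils 186 CPM (134 to 253) from 41. With 6 UMIs the Met-1 neutrophil level is imprecise, and the intervals overlap. Within a tumour, macrophages over neutrophils gave 1.46 (0.665 to 3.98) in Met-1 and 0.873 (0.623 to 1.25) in PyMT. The Met-1 value moved to 4.04 at 1000 UMIs per barcode, where 1 of 28 neutrophils held an Fcgr4 UMI. Over the alternatives the PyMT value ranged from 0.798 to 1.286, so its direction is open. Met-1 monocytes held 3 Fcgr4 UMIs beside 52 of Fcgr3.

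NK cells carried Fcgr3 almost without the other Fc gamma receptors. The 139 Met-1 NK cells held 82 Fcgr3 UMIs, and 1 UMI each of Fcgr1, Fcgr4 and Fcgr2b. Fcgr3 made up 96.5% (90.03 to 99.3) of these UMIs in Met-1 NK cells and 39.2% (37.96 to 40.5) in Met-1 macrophages, and the part of stray macrophage RNA in the NK counts was not tested. At 57.5 CPM (45.7 to 71.3) in NK cells and 18.1 CPM (13.0 to 24.6) in T cells of Met-1, the ratio was 3.17 (2.15 to 4.74). Fcgr3 was the 1 of 2 measured members that was higher in NK cells, where 1.31% of 4901 genes were higher and 1.51% lower. After thinning, 10 of 139 (7.19%) NK cells and 5 of 243 (2.06%) T cells had an Fcgr3 UMI, at median depths of 9575 and 8239 UMIs, and unthinned 33.1% and 10.9% did. Fcer1g in NK over T cells was 1.70 (1.63 to 1.77), and 2.08 with Ccr7 left out of the dendritic gate. Of the 41 Fcgr3 UMIs of Met-1 T cells, 34 lay in those with gamma-delta chain RNA. The 3 PyMT NK barcodes held 3 Fcgr3 and 69 Fcer1g UMIs.

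Fcgr2b, the inhibitory receptor, was held mainly by macrophages, which contained 78.3% of its UMIs in kept Met-1 barcodes and 75.7% in PyMT. Macrophages of Met-1 had 263 CPM (249.6 to 276) and those of PyMT 322 CPM (292 to 354), a ratio of 0.817 (0.733 to 0.911). Neutrophils held 3 UMIs in Met-1 and 5 in PyMT, and macrophages stood above them by 6.94-fold (2.37 to 33.7) in Met-1 and 14.2-fold (6.02 to 43.8) in PyMT. Without the barcode that held most Fcgr2b UMIs in each class these were 19.9 in Met-1 and 22.8 in PyMT, and the PyMT ratio was 33.5 at 1000 UMIs per barcode and 50.7 with doubled gate thresholds. This sets Fcgr2b beside Fcgr1, with few neutrophil UMIs in both tumours. Met-1 B cells had 48.5 CPM (29.2 to 75.8) from 19 UMIs, and PyMT B cells held 1 UMI. Met-1 B cells held 19 Fcgr2b UMIs to 1 of Fcgr3, whereas Met-1 macrophages held 1512 to 2198. The part of stray macrophage RNA in the B cell counts was not tested. Without Ccr7 in the dendritic gate, 247 Met-1 B cells held 45 Fcgr2b UMIs (49.4 CPM).

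Set beside neutrophils, 5 of 8 measured members were at least 2-fold higher in Met-1 macrophages (Fcgr1, Fcgr2b, Fcgrt, Fcrl1 and Fcrls), where 42.1% of 7842 genes were higher and 8.63% lower. In PyMT macrophages 4 of 7 were higher (Fcgr1, Fcgr2b, Fcgrt and Fcrls), where 33.4% of 3211 genes were higher and 12.5% lower. With so many genes higher in macrophages, these counts are no result about the members. Fcrl1 in Met-1 rests on 0 neutrophil UMIs, and 3 counts there would be 37.8 CPM, above the macrophage level. Fcgr3, Fcgr4 and Fcer1g were within 2-fold in both tumours, with macrophage to neutrophil ratios from 0.794 (Fcer1g in PyMT) to 1.46 (Fcgr4 in Met-1).

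The proportion of activating to inhibitory RNA was lower in macrophages than in neutrophils of both tumours. Macrophages held 2.70 (2.55 to 2.87) UMIs of Fcgr1, Fcgr3 and Fcgr4 per Fcgr2b UMI in Met-1 and 3.33 (2.98 to 3.71) in PyMT. Neutrophils held 13.3 (4.25 to 67.4) in Met-1, from 40 to 3 UMIs, and 43.6 (18.4 to 136) in PyMT, from 218 to 5. Without the barcode with the most UMIs on each side the neutrophil values were 36.0 in Met-1 and 67.7 in PyMT, and the PyMT value was 112 at 1000 UMIs per barcode and 174.0 with all gate thresholds doubled. The intervals of the 2 classes do not overlap in either tumour, nor do those of Met-1 and PyMT macrophages. NK cells of Met-1 held 84 to 1 and monocytes 80 to 48. Single Met-1 macrophages also held both kinds: Fcgr2b was found with at least 1 activating receptor in 449 of 678 (66.2%) of them, and in 88 of 673 (13.1%) after thinning to 1000 UMIs. These are proportions of captured RNA, not of receptors on the cell surface, and reads shared by Fcgr2b and Fcgr3 can shift them. The part of stray macrophage RNA in the neutrophil proportions was not tested.

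**Figure D2:**
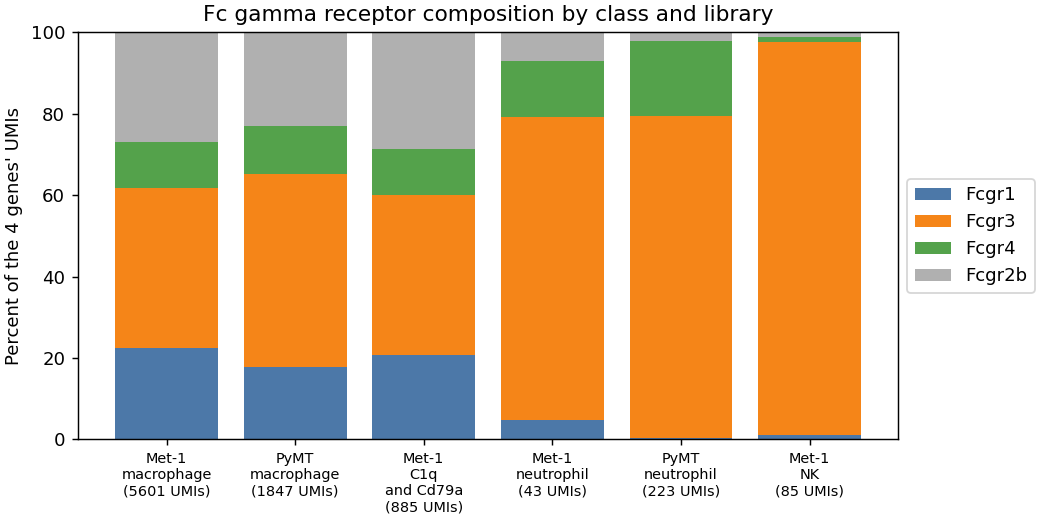
Share in percent of the summed UMIs of Fcgr1, Fcgr3, Fcgr4 and Fcgr2b that belongs to each gene (stacked bars), by class and tumour. Fcgr2b takes 27.0% in Met-1 and 23.1% in PyMT macrophages, and 6.98% in Met-1 and 2.24% in PyMT neutrophils.

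In macrophages, 8 of the 10 members could be compared between the tumours, since Fcmr and Fcer2a had under 50 UMIs in both. Of these, 0 of 8 were at least 2-fold apart, where 6.38% of 7840 genes were higher in Met-1 and 1.31% lower. The members' median log2 ratio on CPM + 10 was -0.27, beside 0.16 for all genes tested. It was -0.04 over the 3147 genes with 50 UMIs in both libraries. Macrophages held 5756052 UMIs in Met-1 and 1327506 in PyMT, so genes reached 50 UMIs more easily in Met-1. The value for all genes, and the share higher in Met-1, can be raised by this. The ratio was below 1 for 7 of the 8, and for Fcrl1 it was 1.31 (0.813 to 2.23). For Fcgr1, Fcgrt and Fcrl1 the interval includes 1, while in the macrophages without S100a8 and S100a9 UMIs given above those of Fcgr1 and Fcgrt lie below 1. In neutrophils 0 of 2 measured members were apart, where 4.93% of 629 genes were higher in Met-1 and 18.0% lower. Setting neutrophils by S100a8 and S100a9 alone, a gate added after the data had been seen, put Fcgr3 past 2-fold at 0.476 (0.318 to 0.692).

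**Figure D3:**
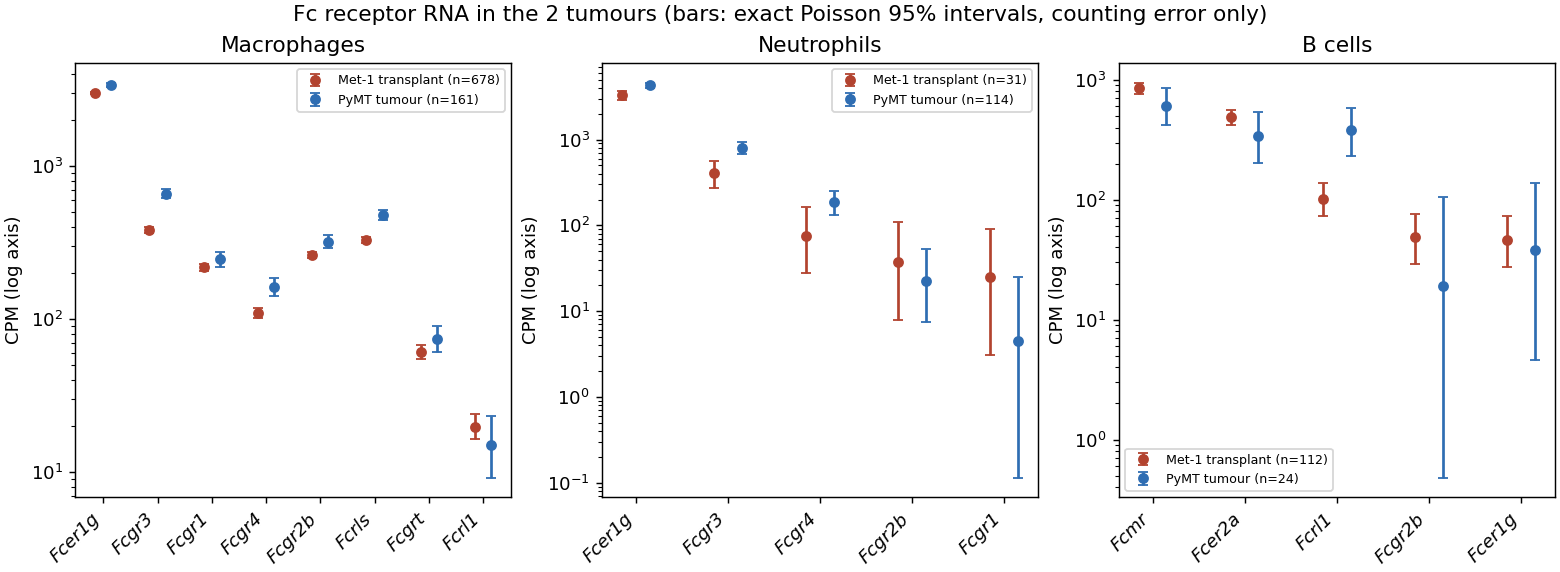
Level in CPM (log axis) with 95% Poisson intervals in the Met-1 transplant, drawn left of the PyMT tumour for each gene, in macrophages, neutrophils and B cells. The Met-1 intervals lie below those of PyMT for Fcgr2b, Fcgr3, Fcgr4, Fcer1g and Fcrls in macrophages, for Fcgr3 and Fcer1g in neutrophils and for Fcrl1 in B cells.

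Fcrls was unevenly spread over macrophages. Its level was 331 CPM (316 to 346) in those of Met-1 and 481 CPM (445 to 520.2) in those of PyMT, a ratio of 0.687 (0.628 to 0.752). Neutrophils held 1 UMI in Met-1 and 2 in PyMT. A UMI was found in 308 of 678 (45.4%) Met-1 and 91 of 161 (56.5%) PyMT macrophages. The 68 Met-1 macrophages with the most Fcrls UMIs held 62.2% of them, and the 17 PyMT macrophages with the most held 53.05%. The same numbers of barcodes held 39.8% of the Fcgr2b UMIs in Met-1 and 34.9% in PyMT, so Fcrls was the more concentrated of the pair. Thinned to 1000 UMIs, 136 of 673 (20.2%) Met-1 and 52 of 161 (32.3%) PyMT macrophages had an Fcrls UMI, against 0 of 236 Met-1 fibroblasts.

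Macrophages with RNA of Ccr2 or Ly6c2, genes of monocytes, held less Fcrls in PyMT. The 22 PyMT macrophages with at least 2 UMIs of these genes, a split added after the data had been seen, had 259.8 CPM (203 to 327) of Fcrls, and the other 139 had 539.8 CPM (496 to 586). The ratio was 0.481 (0.371 to 0.616), and Fcrls was the 1 of 7 measured members that was lower, where 2.14% of 2622 genes were lower and 0.686% higher. Fcgr2b went the other way, at 411 CPM in macrophages with this RNA and 298 CPM in the others, a ratio of 1.38 (1.10 to 1.72). The cells with this RNA were deeper, with a median of 12389.5 UMIs against 6441. In Met-1, 18 such macrophages held 98 Fcgr2b UMIs in 17 barcodes and 71 Fcrls UMIs in 3 barcodes, 49 of them in 1. The other 660 Met-1 macrophages held 1414 Fcgr2b and 1832 Fcrls UMIs. Over summed UMIs, Fcrls in Met-1 was at 319.5 CPM (249.5 to 403) with this RNA and 331 CPM (316 to 347) without it, and these intervals overlap. The first level rests on 18 barcodes and mostly on 1 of them, so the overlap says little. The Met-1 monocytes held 48 Fcgr2b UMIs, and 10 Fcrls UMIs in 1 barcode. Activating per inhibitory UMI came to 2.63 (2.11 to 3.29) in PyMT macrophages with this RNA and 3.58 (3.15 to 4.07) in the others, and Met-1 held 144 to 98 and 3945 to 1414 UMIs.

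Cycling macrophages were those with at least 2 UMIs of cell division genes such as Top2a and Mki67. No member differed by 2-fold between them and other Met-1 macrophages (0 of 8), where 2.25% of 7278 genes were higher and 0.302% lower. The 85 cycling Met-1 macrophages had 156 CPM (134 to 181) of Fcgr2b, and the 593 not cycling had 288 CPM (273 to 304), a ratio of 0.541 (0.459 to 0.634). The ratio of cycling to other Met-1 macrophages was 0.540 (0.379 to 0.753) for Fcgrt, 0.815 (0.719 to 0.921) for Fcrls, 0.634 (0.342 to 1.10) for Fcrl1, 0.639 (0.502 to 0.806) for Fcgr4, 0.682 (0.578 to 0.8001) for Fcgr1 and 0.740 (0.656 to 0.832) for Fcgr3. Fcer1g stood at 3220 CPM in cycling and 2980 CPM in other macrophages, a ratio of 1.08 (1.04 to 1.12). Median depth was 10608 UMIs in cycling and 7326 in other macrophages. The 17 cycling PyMT macrophages held 53 Fcgr2b, 32 Fcgr1 and 125 Fcgr3 UMIs, and the 144 others held 374, 294 and 753.

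Fcgrt, the neonatal receptor, was higher in stromal cells than in macrophages of Met-1. It was at 258 CPM (242 to 274) in 241 fibroblasts, 226 CPM (199.9 to 254) in 103 mural cells, which wrap small vessels, and 60.8 CPM (54.6 to 67.5) in macrophages. Fibroblasts and mural cells overlap, and both lie above macrophages. Fibroblasts stood above macrophages by 4.24-fold (3.75 to 4.80), where 21.4% of 9427 genes were higher and 13.9% lower. Mural cells stood above them by 3.71-fold (3.16 to 4.36), where 15.6% of 8404 genes were higher and 14.9% lower. Such a difference was therefore common between these classes. In both comparisons Fcgrt was the 1 of 8 measured members that was higher, and the other 7 were lower. In PyMT, 11 fibroblasts held 29 Fcgrt UMIs, and macrophages had 74.6 CPM (60.6 to 90.8), which gives a Met-1 to PyMT ratio of 0.815 (0.650 to 1.03). Neutrophils held 0 UMIs in Met-1 and 1 in PyMT.

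Fcmr and Fcer2a, the IgM and IgE receptors, marked B cells. For Fcmr, B cells of Met-1 had 848 CPM (759.6 to 945) and B cells of PyMT 609 CPM (416 to 859), with overlapping intervals and a ratio of 1.39 (0.968 to 2.07). For Fcer2a, Met-1 B cells had 491 CPM (424 to 565), while PyMT B cells had 342 CPM (203 to 541), a ratio of 1.43 (0.883 to 2.47). T cells held 1 UMI of each in Met-1 and 0 in PyMT. Without Ccr7 in the dendritic gate, 247 Met-1 B cells had 752.8 CPM (697.6 to 811) of Fcmr, below the interval with it. The 30 PyMT B cells then had 535.5 CPM (373 to 744.8). The Fcmr ratio was 1.41 (1.001 to 2.035), whose interval just excludes 1, and the Fcer2a ratio was 1.45 (0.926 to 2.40). With barcodes thinned, 61 of 110 (55.5%) Met-1 and 8 of 24 (33.3%) PyMT B cells had an Fcmr UMI, against 1 of 243 (0.411%) Met-1 T cells, and the Met-1 to PyMT ratio was then 2.38. Unthinned shares were 83.04% of Met-1 B cells, 62.5% of PyMT B cells and 0.405% of Met-1 T cells, and B cells had medians of 3435 UMIs in Met-1 and 2065 in PyMT. In Met-1, 2 of 3 measured members were higher in B than in T cells (Fcmr and Fcer2a) and 1 lower (Fcer1g), where 6.08% of 4915 genes were higher and 16.4% lower. In PyMT the 1 measured member, Fcer1g, was lower, where 4.37% of 572 genes were higher and 29.0% lower. Between the tumours 0 of 2 measured members were apart in B cells, where 16.5% of 938 genes were higher in Met-1 and 5.97% lower.

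Fcrl1 was lower in Met-1 than in PyMT B cells, on few counts. Met-1 B cells held 40 UMIs, or 102 CPM (73.03 to 139), and PyMT B cells held 20, or 380.4 CPM (232 to 588). The ratio was 0.269 (0.153 to 0.485), and the intervals do not overlap. The PyMT UMIs lay in 13 of 24 barcodes, up to 4 in 1. Under 50 UMIs in both tumours, Fcrl1 is not among the measured members above. Without Ccr7 in the dendritic gate, 247 Met-1 B cells held 91 UMIs (99.9 CPM) and 30 PyMT B cells held 27 (413 CPM), a ratio of 0.242 (0.156 to 0.387), and Fcrl1 was then measured and apart. EGFP RNA also differed between these B cells, as given above, and its part in the result was not tested.

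Macrophages too held Fcrl1 RNA, with little of the other B cell receptors. There were 114 UMIs in 87 of 678 (12.8%) Met-1 macrophages, or 19.8 CPM (16.3 to 23.8), and 20 in 18 of 161 (11.2%) PyMT macrophages, or 15.1 CPM (9.20 to 23.3). The Met-1 macrophages held 5 UMIs of Fcmr and 4 of Fcer2a, and the PyMT macrophages 4 and 3. Fcrl1 to Fcmr UMIs in B cells stood at 40 to 332 in Met-1 and 20 to 32 in PyMT, and the part of stray B cell RNA in the macrophage counts was not tested. Met-1 T cells, at a median depth of 8239 UMIs, held 0 Fcrl1 UMIs and Met-1 fibroblasts 1. Cd5l, a gene of tissue macrophages, lies 5314 bases before Fcrl1 on the same strand and had 40 UMIs in 18 Met-1 macrophages. In the 660 Met-1 macrophages without Cd5l RNA, 106 Fcrl1 UMIs were found in 81 barcodes. Thinned to 1000 UMIs, 14 of 673 (2.08%) Met-1 and 0 of 161 PyMT macrophages had an Fcrl1 UMI, near the level of a single molecule.

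Barcodes with both C1q and Cd79a RNA carried macrophage and B cell receptors together. The class was set by 5 or more C1q and 2 or more Cd79a UMIs, so it had to hold RNA of both cell types. The same gates took barcodes with 2 or more Cd79a UMIs out of the macrophages. They also took those with 5 or more C1q UMIs out of the B cells. Differences from these 2 classes were therefore set in part by the gates. In the 96 Met-1 barcodes Fcer1g stood at 2097 CPM (2016 to 2180), Fcgr3 at 284 CPM (255 to 316), Fcgr2b at 208 CPM (183 to 235) and Fcmr at 257 CPM (229 to 287). Relative to Met-1 macrophages, the 6 myeloid members stood between 0.689 (0.587 to 0.805) for Fcgr1 and 0.790 (0.689 to 0.903) for Fcgr2b. Relative to Met-1 B cells, Fcmr stood at 0.302 (0.259 to 0.354) and Fcer2a at 0.252 (0.202 to 0.313). Against macrophages, 2 of 10 members were higher, Fcmr by 296-fold (125 to 916) and Fcer2a by 178-fold (67.96 to 660.4), where 1.33% of 7883 genes were higher and 0.292% lower. Against B cells, 6 of 10 were higher (Fcgr1, Fcgr2b, Fcgr3, Fcgr4, Fcer1g and Fcrls) and 2 lower (Fcmr and Fcer2a), where 21.9% of 3377 genes were higher and 4.2% lower. With all gate thresholds doubled, the ratio to macrophages was 85.4 for Fcmr and 45.02 for Fcer2a, and at 1000 UMIs per barcode it was 168 for Fcmr.

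The proportions among their Fc gamma receptors overlapped those of macrophages. Fcgr3 made up 39.3% (36.1 to 42.6) of the 4 genes' UMIs in the Met-1 barcodes with both RNAs and 39.2% (37.96 to 40.5) in Met-1 macrophages. Fcgr2b made up 28.7% (25.7 to 31.8) in the barcodes with both RNAs and 27.0% (25.8 to 28.2) in macrophages. Fcmr to Fcer2a UMIs stood at 314 to 151 in the barcodes with both RNAs and at 332 to 192 in B cells. In PyMT the 12 such barcodes held 494 Fcer1g, 74 Fcgr3, 48 Fcgr2b, 33 Fcgr1, 22 Fcrls, 18 Fcgr4, 16 Fcmr, 9 Fcrl1 and 8 Fcer2a UMIs. Both libraries thus had barcodes of this kind.

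Single barcodes held myeloid and B cell receptors. The Met-1 barcodes with both RNAs had medians of 32 myeloid Fc UMIs (Fcgr1, Fcgr2b, Fcgr3, Fcgr4, Fcer1g and Fcrls) and 4 UMIs of Fcmr and Fcer2a, against 30 and 0 in Met-1 macrophages and 0 and 4.5 in Met-1 B cells. PyMT medians were 63.5 and 2, against 37 and 0 in macrophages and 0 and 1 in B cells. An activating Fc gamma receptor together with Fcmr or Fcer2a was found in 13 of 96 (13.5%) Met-1 barcodes with both RNAs after thinning, in 0 of 673 Met-1 macrophages and in 0 of 110 Met-1 B cells, where 1000 UMIs per barcode limit what can be found. Without thinning the pair was found in 85 of 96 (88.5%) barcodes with both RNAs, 8 of 678 (1.18%) macrophages and 2 of 112 (1.79%) B cells of Met-1. The gates had cleared the macrophages and B cells of barcodes with both RNAs, so this contrast was set in part in advance. Median depth was 11634.5 UMIs in the Met-1 and 15945.5 in the PyMT barcodes with both RNAs, above the 7540 of Met-1 and 7238 of PyMT macrophages. Scrublet, which scores likeness to simulated doublets, called 5 of 102 such barcodes in Met-1 and 0 of 12 in PyMT before filtering. A cell with both RNAs and a pair of cells in 1 droplet cannot be told apart from these counts.

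**Figure D4:**
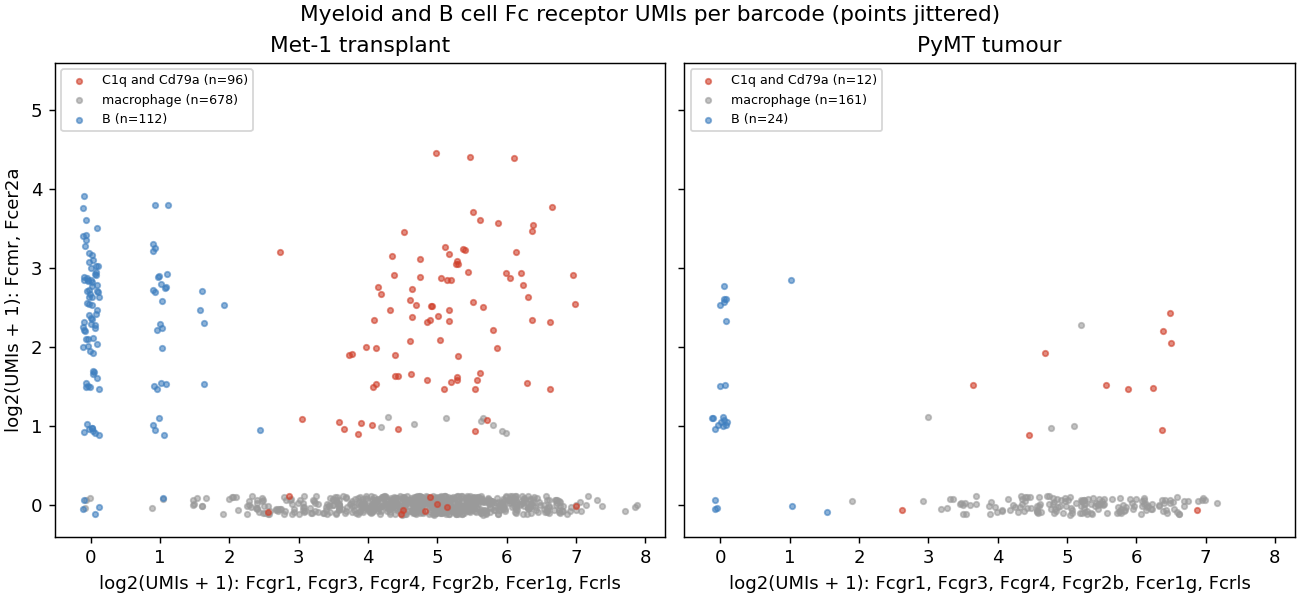
Each point is 1 barcode, placed by log2(UMIs + 1) of 6 myeloid Fc receptor genes (x axis) and of Fcmr and Fcer2a (y axis), for the Met-1 transplant (left) and the PyMT tumour (right). Macrophages lie along the x axis and B cells along the y axis, and the 96 Met-1 and 12 PyMT barcodes with C1q and Cd79a RNA have medians of 4 and 2 UMIs of Fcmr and Fcer2a beside their myeloid UMIs.

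Downstream of the receptors, 30 signalling genes and 10 other Fc-binding genes were compared in macrophages. Of the signalling genes 26 were measured, 1 passed 2-fold upward in Met-1 and 0 downward, beside 6.38% and 1.31% of all genes. Their median log2 ratio was 0.24, beside 0.16 for all genes tested. The gene apart was Gab2, an adaptor that binds PI3K, with 61.3 CPM in Met-1 macrophages, 24.1 CPM in PyMT macrophages and a ratio of 2.54 (1.77 to 3.78). Syk, the kinase recruited by the gamma chain, had a Met-1 to PyMT ratio of 2.16 (1.70 to 2.77), and Pik3ap1, an adaptor of PI3K, one of 2.46 (1.48 to 4.41), both short of 2-fold on CPM + 10. Syk thus stood higher in Met-1 while Fcer1g and Fcgr3 stood lower. The lowest ratios were 0.517 (0.504 to 0.530) for B2m, the partner of Fcgrt and of class I molecules, 0.544 (0.465 to 0.638) for Dok3, an adaptor that dampens immune receptor signals, and 0.625 (0.441 to 0.901) for Fgr, a Src family kinase. B2m was the 1 other Fc-binding gene measured, and Fcer1a and Ms4a2, the mast cell partners of the gamma chain, had 0 UMIs in macrophages of both tumours.

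Over 14 class sums of at least 20 barcodes, the genes most like a member were ranked by the Pearson correlation of log2(CPM + 10) among 8521 genes. Most like Fcer1g were Tnfaip3 (0.989), Myo1f (0.976) and Ccdc88b (0.975). Most like Fcgr4 were Clec4n (0.990), Lrrc25 (0.986) and Klra2 (0.978), and most like Fcgr2b were Fgd2 (0.964), Apoe (0.957) and Ctss (0.956). Fcmr was closest to Bank1 (0.999), Iglc3 (0.999) and Iglc2 (0.998). The 14 points come from 2 libraries and differ in depth, and the values describe which classes hold a gene.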

How the data were processed

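Droplet single-cell RNA was measured in EGFP-positive, tdTomato-negative cells of 1 Met-1 transplant and 1 PyMT tumour. The deposited values are raw UMI counts per gene and barcode, made by the authors with Cell Ranger 3.1.0 on mm10, per the submitters' processing notes. Doublet removal before deposit is not mentioned there.

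A barcode was kept if it held 500 UMIs or more, 200 genes or more and no more than 10% of its UMIs from 13 mitochondrial genes. Scrublet calls were left out (23 in Met-1 and 1 in PyMT). This left out 339 Met-1 and 30 PyMT barcodes. The libraries shared 0 barcodes. The kept barcodes held 19768692 UMIs in Met-1 and 4293854 in PyMT. Classes were set by marker UMIs, with thresholds of 1 to 20 UMIs, and a barcode that passed several gates entered no class. UMIs were summed per class and given as CPM with exact Poisson intervals, ratios with exact conditional binomial intervals, and shares with Clopper-Pearson intervals. Shares were also taken after thinning barcodes to 1000 UMIs, leaving out shallower ones. Genes needed 50 UMIs in at least 1 side of a comparison, and 2-fold on CPM + 10 counted as apart. A level of 0 was bounded by 3 counts over the class. Cells are not replicates, so no test was run across them.

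The members and lists were chosen with earlier results of these data known. All 10 members are named, as are the 3 highest and 3 lowest of the signalling and other Fc-binding lists in macrophages and the 3 genes most like Fcer1g, Fcgr4, Fcgr2b, Fcgrt and Fcmr. The genes most like Fcgrt are not reported here. Alternatives changed the depth, gates, pseudocount, UMI minimum, doublet and mitochondrial filters, averaging and centring. Positions come from GENCODE on GRCm38 and promoter sequences from RefSeq on GRCm38.p6. Python 3.11.15, numpy 2.4.6, scipy 1.17.1, pandas 2.3.3, scanpy 1.11.5 and matplotlib 3.10.9 were used.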

Additional observations from a re-analysis of the deposited data

Results flagged for a closer look

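Fc receptor RNA was also found in barcodes that entered no class. Barcodes that passed no gate held 728 UMIs of the 10 genes in Met-1 and 783 in PyMT. Those that passed several gates held 2484 in Met-1 and 901 in PyMT. Barcodes left out by the filters held 2241 in Met-1 and 57 in PyMT. Fcer1g made up 595 of the 728 and 621 of the 783 UMIs in barcodes with no gate. Among these, 2 of 127 Met-1 and 38 of 108 PyMT barcodes had S100a8 and S100a9 at 1% of UMIs or more. In barcodes with several gates, Fcmr had 362 UMIs in Met-1, where 137 of 276 passed the B and dendritic gates.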

How the results depend on the processing

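Of 350 alternative values of 31 single ratios, 328 stayed within the interval of the ratio and 22 moved. No ratio whose interval excludes 1 crossed 1, but some whose interval includes 1 did. Macrophages over neutrophils ranged from 0.798 to 1.286 for Fcgr4 in PyMT and from 0.918 to 1.115 for Fcgr3 in Met-1. The Met-1 to PyMT ratio of Fcgrt in macrophages ranged from 0.806 to 1.031. Of 70 alternatives of counts and of activating per inhibitory UMIs, 59 stayed and 11 moved. Activating UMIs per Fcgr2b UMI were 3.816 in PyMT macrophages at 1000 UMIs per barcode, and 174.0 in PyMT neutrophils with all gate thresholds doubled. Members apart in neutrophils numbered 1 from 20 UMIs (Fcgr4), 2 from 1 UMI (Fcgr1 and Fcgr4), and 1 both when centred on the median gene and with the S100a8 and S100a9 gate (Fcgr3). In B cells they numbered 1 from 20 UMIs and without Ccr7 in the dendritic gate (Fcrl1), and 3 from 1 UMI (Fcgr2b, Fcgr3 and Fcrl1). Signalling genes apart in macrophages numbered 3 with a pseudocount of 1 CPM (Gab2, Pik3ap1 and Syk) and 2 when centred (Gab2 and Syk). The causes were not tested.

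The Ccr7, S100a8 and S100a9, gamma-delta chain, Ccr2 or Ly6c2 and Cd5l alternatives were chosen after seeing the data. No paired analysis was possible because each tumour has 1 library. For the same reason leaving out a replicate was not run, and a difference between the tumours cannot be told apart from one between libraries or mice. Depth limits neutrophils and B cells most, where few members reached 50 UMIs.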
